A study of Mus musculus with 6 samples.

Results

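The blood-brain barrier genes described here are 10 genes, 8 encoding transporters (Slc38a5, Slc7a5, Slc2a1, Mfsd2a, Slco1c1, Slco1a4, Abcb1a and Abcg2) and 2 encoding tight junction proteins (Cldn5 and Ocln), of the 25576 genes listed in at least 1 of 6 bulk-seq libraries of whole mouse spinal cord. They were chosen by name, as a functional group, with the FPKM values of these same 6 libraries known, so every difference between SMA and control given for them is a description without a test. All 10 were found in every library and all had a mean above the minimum of 0.5 FPKM used for tested genes. Bulk-seq was done on FVB mice at postnatal day 4. The 3 libraries labelled SMA come from mice of the severe Taiwanese model, given as without mouse Smn (mSmn-/-, hSMN22tg/0), and the 3 labelled control from mice with a remaining Smn allele (mSmn+/-, hSMN22tg/0), so both genotypes carry the human SMN2 transgene and no wild-type mouse was included. The study's methods give triplicates with n = 1 per group, so spread between libraries may be technical. FPKM gives the fragments of a gene scaled to the length of its exons and to the library's mapped fragments, and a gene missing from a library's file was taken as 0 FPKM.

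Endothelial cells of the central nervous system form the blood-brain barrier and, in the cord, the blood-spinal cord barrier. They are sealed by tight junctions, take up nutrients through solute carriers, export foreign compounds through ATP-driven pumps and hold back vesicle traffic across the cell. Wnt signals from neural cells, received through beta-catenin, induce this programme during development, and pericytes and astrocyte endfeet maintain it. In spinal muscular atrophy (SMA), caused by loss of the SMN protein, motor neurons degenerate, and the comparison asks whether RNA of these vessel genes differs in the cord while the mice are still young.

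Control replicate 2 stood apart from the other 5 libraries. The 12 hepatocyte markers summed to 35218 FPKM in it, or 8.51% of its total FPKM, against 61.1 to 131 FPKM in the other libraries. All 12 of them were listed in every library. Alb, encoding albumin and the most abundant of them, reached 15894 FPKM there and 24.6 to 56.2 elsewhere. The liver-specific signal came with blood and liver vessel signal. The 9 erythroid markers found summed to 18864 FPKM in it and 1115 to 1864 elsewhere, led by Hbb-bs at 7026 FPKM. The 8 markers of liver sinusoidal endothelium summed to 55.4 FPKM in it and 2.45 to 4.24 elsewhere, led by Stab2, the hyaluronan receptor of these cells, at 19.1 FPKM. Oit3 and Dnase1l3 of that list were each at 0 in a library labelled SMA. The 10 neuron markers were lower there, with a sum of 1211 FPKM against 2104 to 2261 FPKM in the other libraries. Each difference of the barrier genes is therefore given with all 6 libraries and without control replicate 2, and the part of the liver and blood signal in any difference was not tested. Smn1 was at 10.4, 8.64 and 11.9 FPKM in the control libraries, in the order of their replicate numbers as everywhere below, and at 8.48, 9.30 and 11.1 FPKM in the SMA libraries. These groups overlap, so the gene-level value gives no check of the genotype, and SMA and control below mean the libraries so labelled.

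**Figure D1:**
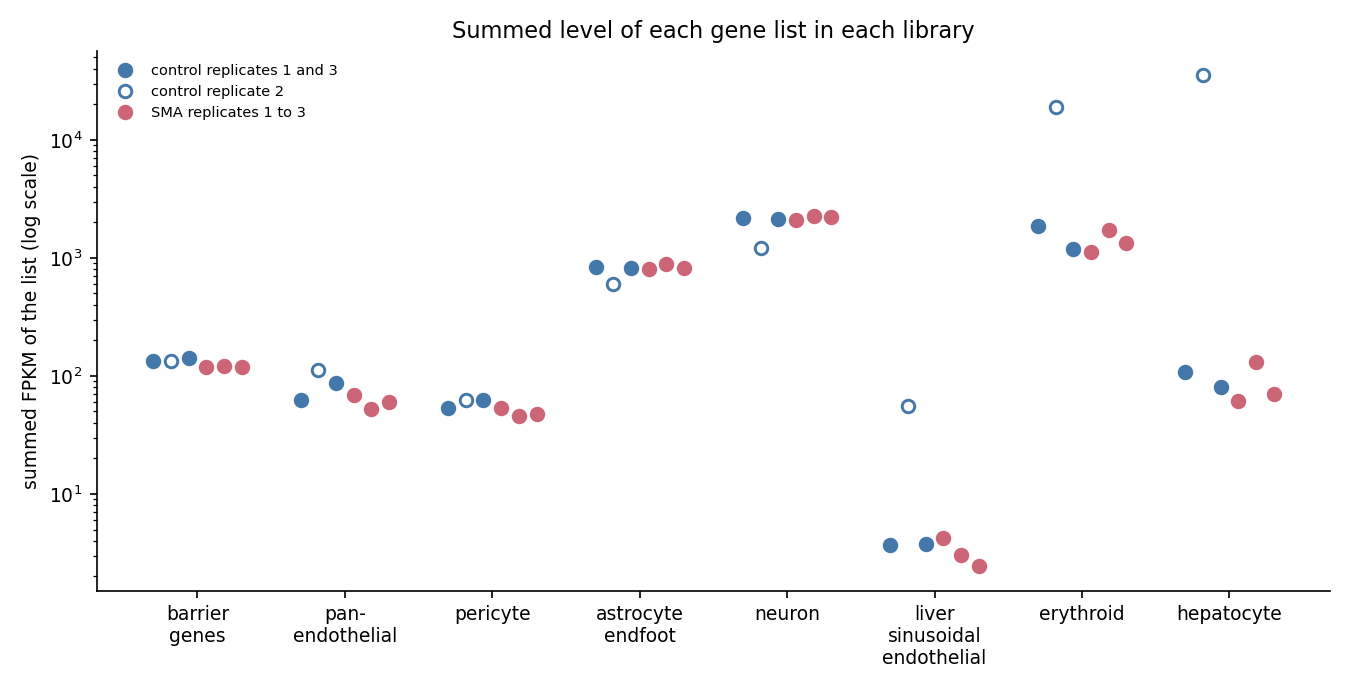
Summed FPKM (log scale) of the barrier genes and of 7 marker lists in each library, with control replicate 2 as an open circle. Hepatocyte, erythroid and liver sinusoidal markers were far higher in control replicate 2 (35218, 18864 and 55.4 FPKM) than in any other library, while the barrier genes summed to 120.0 to 143 FPKM throughout.

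The barrier genes did not move together. Slc38a5 and Cldn5 were lower in SMA, Mfsd2a was higher, Slc7a5 and Slc2a1 differed little, and Slco1a4 was set by control replicate 2. The 10 genes summed to 134, 135 and 143 FPKM in the control libraries and to 120.0, 120.3 and 120.0 FPKM in the SMA libraries. With all 6 libraries, no overlap between the groups was seen for 6 of the 10 genes, 5 of them lower in SMA (Slc38a5, Cldn5, Abcg2, Ocln and Abcb1a; of the 17088 genes tested, 1140 or 6.67% were lower without overlap) and 1 higher (Mfsd2a; 1757 or 10.3% of genes were higher without overlap). Without control replicate 2, the 3 SMA values did not overlap the 2 remaining control values for any of the 10 genes, 8 lower and 2 higher, while 2302 (13.9%) of 16574 genes were lower without overlap and 2351 (14.2%) higher. Since the genes were chosen with these values known, nothing is read from the excess. The median log2 fold change of the 10 genes, on log2(FPKM + 1), was -0.25 with all libraries and -0.26 without control replicate 2, beside medians of 0.04 and 0.00 over all genes tested. In whole-cord RNA, fewer endothelial cells and less RNA per endothelial cell cannot be told apart.

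**Figure D2:**
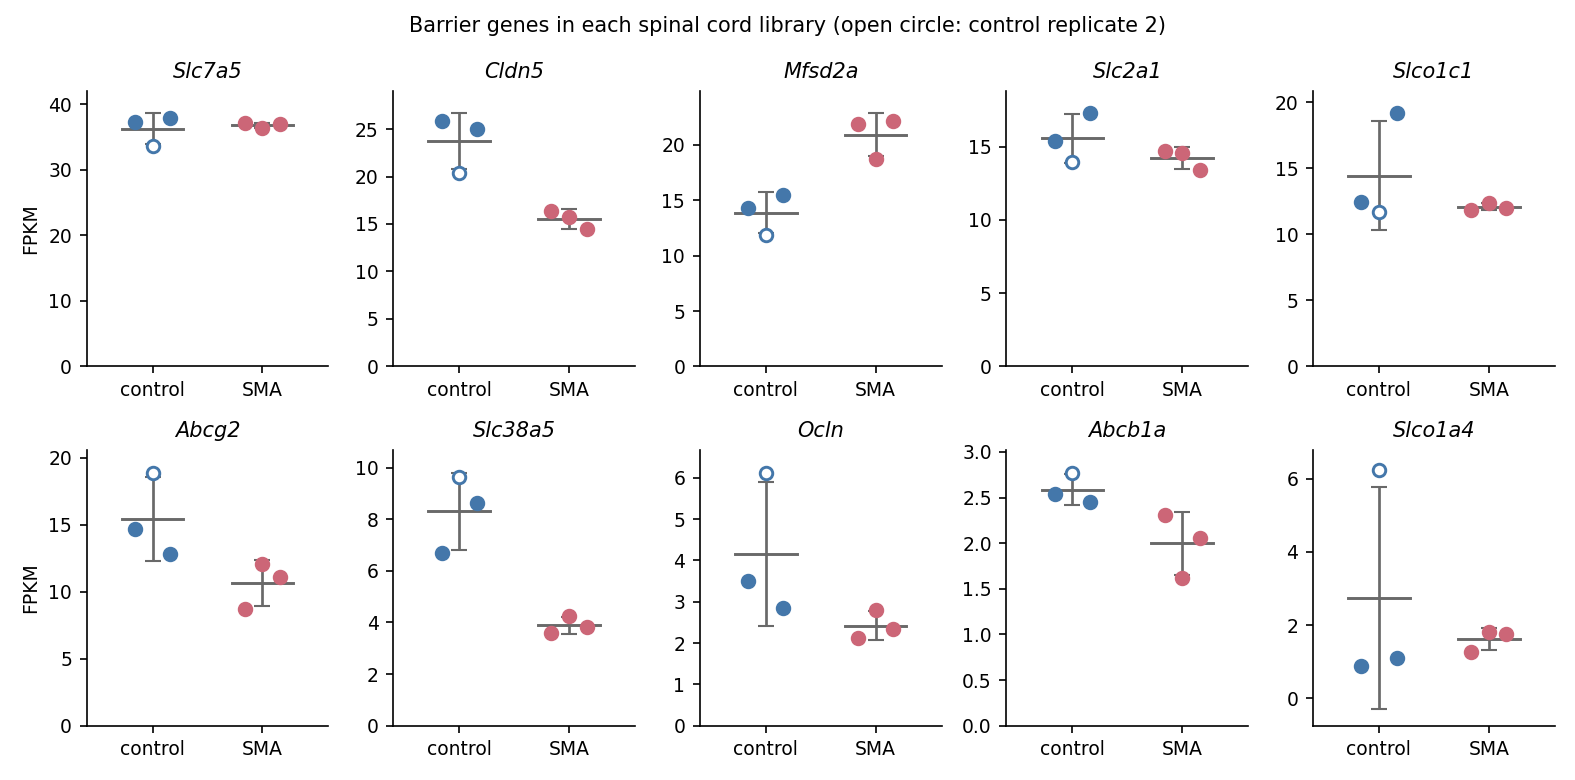
FPKM of the 10 barrier genes in each of the 3 control and 3 SMA libraries, in order of mean level, with the group mean (bar) and SD (whiskers); the open circle is control replicate 2. Slc38a5 and Cldn5 lie lower in all SMA libraries and Mfsd2a higher, while the control mean of Slco1a4 rests on control replicate 2 (6.23 FPKM).

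By level, Slc7a5 was the most abundant of the group in all 6 libraries, with a mean of 36.5 FPKM. Cldn5 (19.6 FPKM), Mfsd2a (17.4), Slc2a1 (14.9), Slco1c1 (13.3) and Abcg2 (13.0) followed, and the ranges of neighbours in this order overlapped. Cldn5 exceeded Mfsd2a in 3 libraries, which were the control libraries, and stood under it in the 3 SMA libraries. Slc38a5 (6.10 FPKM), Ocln (3.29), Abcb1a (2.29) and Slco1a4 (2.18) were lower in the order. Abcg2 exceeded Slc38a5, and Slc38a5 exceeded Ocln, in all 6 libraries.

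Slc38a5 encodes a sodium-coupled neutral amino acid transporter that carries glutamine, and as deposited it showed the largest fold change of the group. It was at 6.68, 9.62 and 8.62 FPKM in control replicates 1, 2 and 3 and at 3.61, 4.24 and 3.81 FPKM in SMA replicates 1, 2 and 3. All 3 SMA libraries lay under the lowest control library, and the SMA libraries varied less among themselves than the controls did. The means were 8.31 ± 1.50 FPKM in control and 3.88 ± 0.322 FPKM in SMA (SD, n = 3 each), a ratio of 0.467. On the log2 scale the difference was -0.92 (SE 0.15) with all libraries and -0.82 (SE 0.14) without control replicate 2. Slc38a5 is on the X chromosome (chrX:8271133-8280179, GRCm38, plus strand) and its longest annotated principal transcript has 16 exons. Its relative Slc38a3, the glutamine transporter also abundant in liver and astrocytes, was at 24.3, 69.3 and 25.0 FPKM in control and 25.9, 27.3 and 25.1 FPKM in SMA. For Slc38a3 the groups overlapped and only control replicate 2 was high.

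Cldn5, encoding claudin-5, the main claudin of endothelial tight junctions, was at 25.8, 20.4 and 25.0 FPKM in control and 16.4, 15.7 and 14.4 FPKM in SMA. The groups did not overlap, and control replicate 2 was the lowest control. The means were 23.7 ± 2.94 FPKM in control and 15.5 ± 1.00 FPKM in SMA (SD, n = 3 each), a ratio of 0.655. The log2 difference was -0.58 (SE 0.12), and -0.68 (SE 0.08) without control replicate 2. Cldn5 is a gene of 1 exon (chr16:18776847-18778262, GRCm38, plus strand), and no other annotated gene overlaps it.

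Ocln encodes occludin, a tight junction protein of endothelial and epithelial cells that hepatocytes also make. It was at 3.50, 6.13 and 2.84 FPKM in control and 2.12, 2.81 and 2.34 FPKM in SMA. The gap between the groups was small, from 2.81 to 2.84 FPKM, and the high control was control replicate 2. Accordingly, the log2 difference of -0.55 (SE 0.24) was -0.29 (SE 0.15) without that library. Ocln lies on chromosome 13 (chr13:100496507-100552718, GRCm38, minus strand), 358817 bases from Smn1 (chr13:100124852-100137690), the gene named in the genotype labels.

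Mfsd2a encodes the lysophosphatidylcholine transporter that carries docosahexaenoic acid into the brain and holds down transcytosis in barrier endothelium. It was higher in SMA, at 14.3, 11.8 and 15.5 FPKM in control and 21.9, 18.7 and 22.2 FPKM in SMA. Every SMA library lay above every control library. The means were 13.9 ± 1.87 FPKM in control and 20.9 ± 1.93 FPKM in SMA (SD, n = 3 each), a ratio of 1.51. The log2 difference was 0.56 (SE 0.13), and 0.46 (SE 0.09) without control replicate 2. Mfsd2a is on chromosome 4 (chr4:122946850-122961188, GRCm38, minus strand) with 14 exons. Its relative Mfsd2b, a sphingosine-1-phosphate exporter of red blood cells and platelets, was at 1.75, 6.57 and 1.57 FPKM in control and 1.44, 1.04 and 1.61 FPKM in SMA, with the groups overlapping.

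The promoters of Slc38a5, Cldn5 and Mfsd2a are shown because these genes had the largest log2 differences on log2(FPKM + 1) with all libraries, 2 below 0 and 1 above, and ratios of means order the genes differently (0.582 for Ocln and 0.594 for Slco1a4, under the 0.655 of Cldn5). RefSeq promoters (GRCm38.p6), each 300 bases long with 250 before and 50 after the transcription start, were found for 9 of the 10 genes. Capitals mark, on either strand, TCAAAG (a TCF/LEF core, read by the factors of the Wnt pathway; in 16.0% of 32851 RefSeq promoters), ACGTG (a hypoxia-response core; 19.6%) or AACAAT (a SOX core; 10.7%), and no capitals mean that none of these letters was found in the window. The windows are chrX:8271131-8271430 (plus strand) for Slc38a5, chr16:18776597-18776896 (plus strand) for Cldn5 and chr4:122961139-122961438 (minus strand) for Mfsd2a.
Slc38a5: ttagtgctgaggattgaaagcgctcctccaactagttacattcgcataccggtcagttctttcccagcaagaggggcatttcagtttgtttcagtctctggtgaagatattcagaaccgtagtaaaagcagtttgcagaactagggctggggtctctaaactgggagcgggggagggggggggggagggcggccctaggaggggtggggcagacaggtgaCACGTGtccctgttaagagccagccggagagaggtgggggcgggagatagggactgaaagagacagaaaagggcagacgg
Cldn5: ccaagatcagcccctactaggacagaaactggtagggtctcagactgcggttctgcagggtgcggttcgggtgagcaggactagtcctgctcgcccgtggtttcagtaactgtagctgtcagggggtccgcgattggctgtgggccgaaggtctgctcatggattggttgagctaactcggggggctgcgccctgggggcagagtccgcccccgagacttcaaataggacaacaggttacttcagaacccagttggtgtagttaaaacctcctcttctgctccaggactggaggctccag
Mfsd2a: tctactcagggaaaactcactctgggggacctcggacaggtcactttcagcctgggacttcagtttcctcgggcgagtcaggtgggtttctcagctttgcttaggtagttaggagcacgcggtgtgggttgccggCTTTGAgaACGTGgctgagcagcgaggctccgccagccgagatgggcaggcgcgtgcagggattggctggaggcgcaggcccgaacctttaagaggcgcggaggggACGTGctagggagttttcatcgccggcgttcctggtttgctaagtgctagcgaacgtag
The Slc38a5 promoter holds ACGTG on both strands in overlapping positions, starting -30 and -29 bases from the transcription start. Mfsd2a holds TCAAAG, read on the opposite strand, at -115 and ACGTG at -107 and -9, and Cldn5 holds none of the 3 motifs. Among the other members with a promoter, ACGTG was found in Slc2a1 and Slco1c1, TCAAAG in Abcb1a and AACAAT in Slco1a4, and none in Abcg2 or Ocln. These matches describe the letters of the windows, and no binding data were used. The Abcb1a window (chr5:8566841-8567140) lies outside the annotated gene (chr5:8660077-8748575, plus strand) and before its start, so its matches are not at that start.

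Slc2a1, Slc7a5 and Slco1c1 carry the barrier's main fuel, large amino acids and thyroid hormone. Slc2a1, the GLUT1 glucose transporter, was at 15.4, 14.0 and 17.3 FPKM in control and 14.7, 14.6 and 13.4 FPKM in SMA. The groups overlapped through control replicate 2, with a log2 difference of -0.12 (SE 0.11). Without that library the SMA values were all lower and the difference was -0.19 (SE 0.08). Slc2a3, the neuronal glucose transporter GLUT3, was at 31.9, 20.9 and 36.1 FPKM in control and 32.6, 36.3 and 35.4 FPKM in SMA, and overlapped. Slc7a5, the LAT1 subunit that exchanges large neutral amino acids, was nearly level, at 37.3, 33.6 and 37.9 FPKM in control and 37.1, 36.3 and 36.9 FPKM in SMA. Its log2 difference was 0.02 (SE 0.09), and -0.03 (SE 0.06) without control replicate 2, so that its sign turned. The files give Slc7a5 a span of 4435365 bases shared by 103 genes, while the annotated gene is chr8:121881150-121907694 (GRCm38, minus strand). Slc7a8, a related light subunit, was at 2.12, 2.65 and 3.32 FPKM in control and 2.59, 2.07 and 2.11 FPKM in SMA, and overlapped. Slco1c1, the OATP1C1 carrier of thyroxine found in barrier endothelium and astrocytes, was at 12.5, 11.7 and 19.2 FPKM in control and 11.9, 12.4 and 12.0 FPKM in SMA. Control replicate 3 alone was high, and the SMA libraries varied with a coefficient of variation of 2.20%. The log2 difference was -0.21 (SE 0.18), and -0.33 (SE 0.16) without control replicate 2, but -0.0002 without control replicate 3, so it rests on that library.

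Abcg2 and Abcb1a encode the efflux pumps BCRP and P-glycoprotein, which sit on the blood side of barrier endothelium and on the bile side of hepatocytes. Abcg2 was at 14.6, 18.9 and 12.8 FPKM in control and 8.73, 12.1 and 11.1 FPKM in SMA. The groups did not overlap, and control replicate 2 was the highest library. The means were 15.4 ± 3.13 FPKM in control and 10.6 ± 1.73 FPKM in SMA (SD, n = 3 each), with a log2 difference of -0.49 (SE 0.18), and -0.35 (SE 0.14) without control replicate 2. Abcb1a was at 2.53, 2.77 and 2.45 FPKM in control and 2.31, 1.62 and 2.06 FPKM in SMA. Every SMA library was lower, with a log2 difference of -0.27 (SE 0.14), and -0.23 (SE 0.15) without control replicate 2. Abcb1b, a close paralog whose reads can be hard to assign, was at 0.742, 0.624 and 1.05 FPKM in control and 0.976, 1.56 and 1.85 FPKM in SMA. Abcb1b overlapped between the groups, with a log2 difference of 0.44 (SE 0.20), opposite in sign to that of Abcb1a. The sum of both genes was 3.28, 3.40 and 3.50 FPKM in control and 3.29, 3.18 and 3.91 FPKM in SMA, so the separation of Abcb1a was absent from the sum.

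Slco1a4 encodes an organic anion transporter of barrier endothelium and of hepatocytes. It was at 0.887, 6.23 and 1.10 FPKM in control and 1.28, 1.82 and 1.77 FPKM in SMA. Control replicate 2 was 6.28 times the mean of the other control libraries, and its inclusion decided the direction. The log2 difference was -0.23 (SE 0.50) with all libraries and 0.39 (SE 0.16) without control replicate 2, where all 3 SMA values were above both control values. Some other members of the same families that liver makes, though not Slc38a3, were near 0 outside control replicate 2. Slco1b2 was at 40.8 FPKM in that library and 0.0705 to 0.238 FPKM in the others. Slco1a1 was at 11.3 FPKM in it and at most 0.0933 FPKM in the others. The liver glucose transporter Slc2a2 was at 36.4 FPKM in it and 0.0549 to 0.104 FPKM in the others. Cldn2, a claudin of leaky epithelia, was at 6.36 FPKM in it and 0.0179 to 0.137 FPKM in the others. Slco2b1, at 3.28, 2.66 and 3.58 FPKM in control and 3.94, 3.23 and 3.02 FPKM in SMA, and the myelin claudin Cldn11, at 28.5, 22.6 and 45.8 FPKM in control and 22.3, 31.6 and 29.2 FPKM in SMA, did not stand out there. By limma, no gene of this family list passed an unadjusted p under 0.05, of 11 tested with all libraries and 7 without control replicate 2.

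Against the other controls, control replicate 2 split the barrier genes evenly. Slco1a4 (6.28 times their mean), Ocln (1.93), Abcg2 (1.38), Slc38a5 (1.26) and Abcb1a (1.11) were higher in it, and those 5 were also higher there than in any other library. Slc7a5 (0.893), Slc2a1 (0.855), Cldn5 (0.802), Mfsd2a (0.794) and Slco1c1 (0.740) were lower. For comparison, the summed neuron markers in it were at 0.563 of the mean of the other controls, the astrocyte endfoot markers at 0.730, the pericyte markers at 1.07 and the pan-endothelial markers at 1.50. The members varied less within SMA than within control for 9 of 10 genes (by the coefficient of variation), as did 82.9% of all genes tested. Without control replicate 2 this held for 4 of 10 members and 57.6% of genes.

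**Figure D3:**
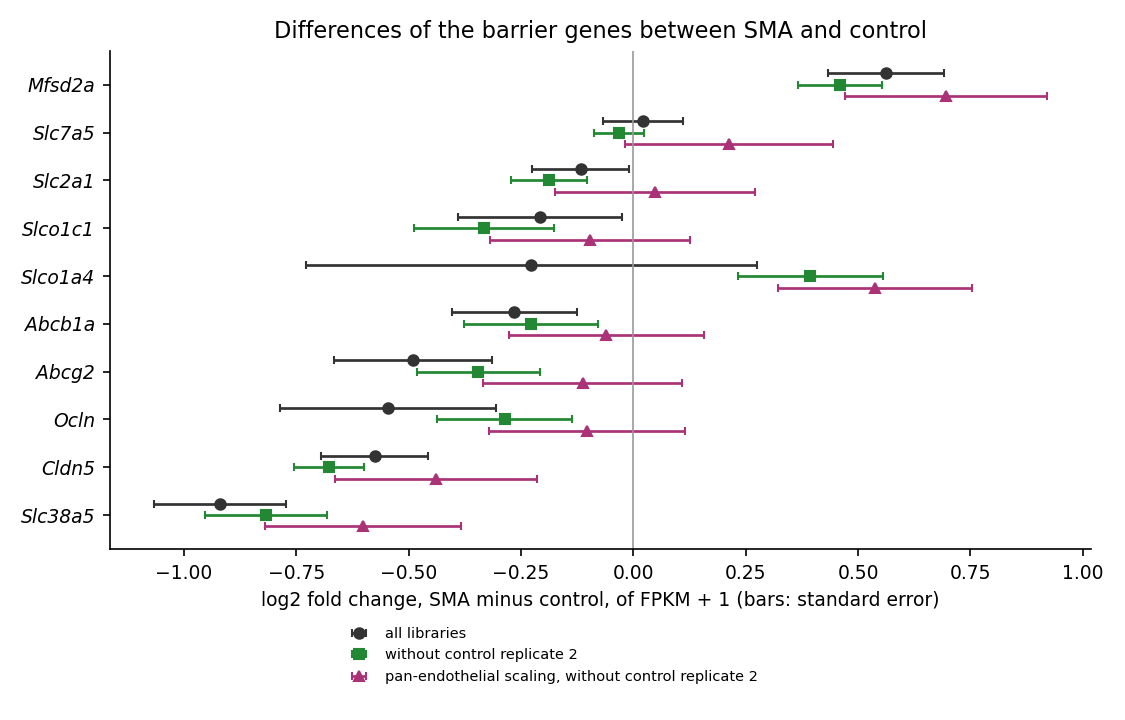
Log2 fold change of each barrier gene, SMA minus control, on log2(FPKM + 1), with its standard error, from all libraries, without control replicate 2, and without it after each library was scaled to its pan-endothelial markers. Slc38a5 and Cldn5 were below 0 and Mfsd2a above 0 in all 3, while Slco1a4 changed sign without control replicate 2 (-0.23 to 0.39).

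Ratios of 2 genes inside a library do not depend on how the library was scaled. Mfsd2a over Cldn5 was 0.555, 0.581 and 0.620 in control and 1.33, 1.19 and 1.53 in SMA. This ratio was close among the controls, control replicate 2 included, and higher in every SMA library. Slc38a5 over Mfsd2a was 0.466, 0.814 and 0.557 in control and 0.165, 0.227 and 0.172 in SMA, again without overlap. In contrast, Slc38a5 over Cldn5 was 0.259, 0.473 and 0.346 in control and 0.220, 0.270 and 0.264 in SMA, and these groups overlapped. Cldn5 over Pecam1, a junction protein of all endothelium, was 4.98, 2.88 and 4.75 in control and 3.62, 5.39 and 3.97 in SMA. It overlapped too, so no difference between Cldn5 and Pecam1 showed beyond the spread, whereas Mfsd2a over Pecam1 was 2.76, 1.68 and 2.95 in control and 4.83, 6.40 and 6.09 in SMA. Against Slc2a1, Cldn5 was 1.68, 1.46 and 1.45 in control and 1.12, 1.08 and 1.08 in SMA. Mfsd2a over Slc2a1 was 0.930, 0.846 and 0.896 in control and 1.49, 1.28 and 1.66 in SMA, so relative to the glucose transporter the groups lay apart in opposite directions for Cldn5 and Mfsd2a.

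**Figure D4:**
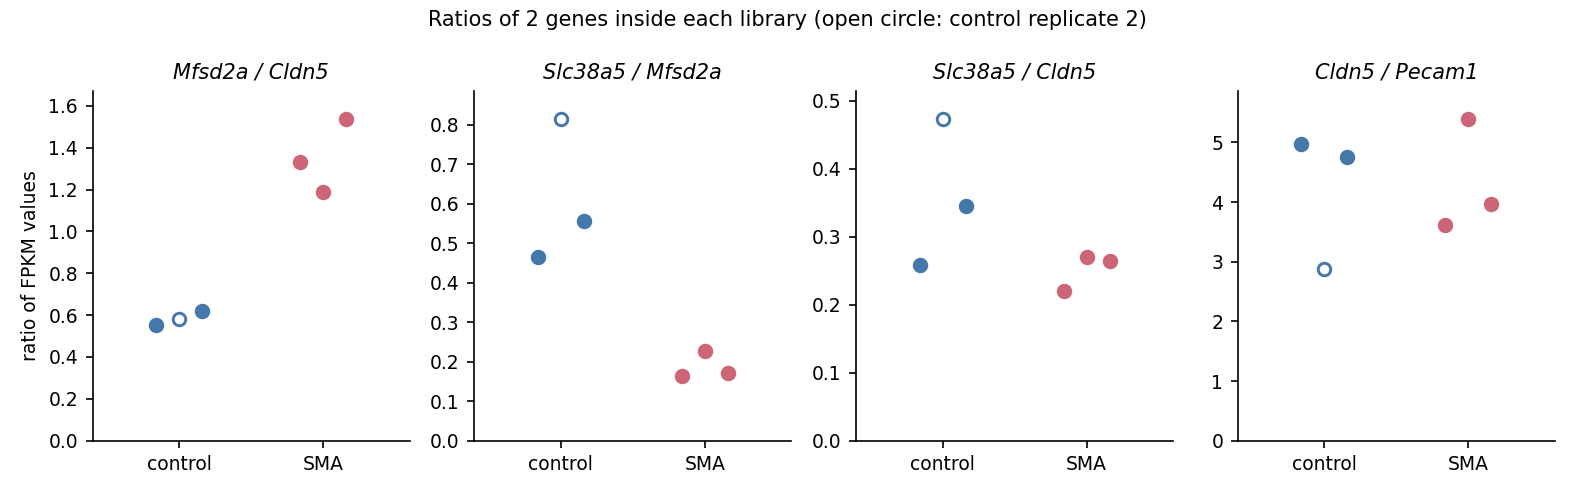
Ratio of the FPKM values of 2 genes inside each library, for 3 control and 3 SMA libraries, with control replicate 2 as an open circle. Mfsd2a over Cldn5 is at most 0.620 in control and at least 1.19 in SMA, while Slc38a5 over Cldn5 and Cldn5 over Pecam1 overlap between the groups.

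General endothelial markers were also lower in SMA on average. The 15 pan-endothelial markers summed to 62.8, 112 and 86.7 FPKM in control and 69.6, 52.4 and 60.4 FPKM in SMA, with Egfl7 the most abundant, none at 0 and the sums overlapping. By limma, 5 of the 15 passed an unadjusted p under 0.05, all lower (across all 17088 genes 409 or 2.39% passed in that direction and 581 or 3.4% in the other, so that 58.7% of calls were higher, against 48.3% after median ratio scaling, 96.5% after scaling to these markers and 5.15% after scaling to neuron markers). The median log2 fold change of the list was -0.39, and 14 of 15 were below 0 (42.0% of all genes were). Without control replicate 2, 6 of 15 passed, all lower (862 or 5.2% of 16574 genes passed lower and 874 or 5.27% higher), with a median of -0.30 and 11 of 15 below 0 (49.6% of all genes were). None of these genes passed an adjusted p under 0.05, and across all genes 0 (0.0%) did with all libraries (smallest adjusted p = 0.683 by limma) and 2 (0.0121%) without control replicate 2. Those 2 were the small RNA genes Snora74a and Rpph1, named here after their values were seen, and neither is a barrier gene.

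Tie1, Tek and Pecam1 had the smallest p of the pan-endothelial markers with all libraries. Tek, the angiopoietin receptor, was at 2.41, 5.33 and 3.95 FPKM in control and 2.00, 1.64 and 1.14 FPKM in SMA (log2 difference -0.88, SE 0.25; limma unadjusted p = 0.0112, adjusted p = 0.683). Tie1, its partner, was at 2.59, 3.79 and 3.90 FPKM in control and 2.21, 1.47 and 1.61 FPKM in SMA (-0.68, SE 0.18; limma unadjusted p = 0.00798). Both were lower in all SMA libraries. Pecam1 was at 5.19, 7.06 and 5.26 FPKM in control and 4.53, 2.92 and 3.64 FPKM in SMA, Kdr, the main VEGF receptor, at 9.01 to 14.3 FPKM against 6.36 to 8.83 FPKM, and Emcn, encoding endomucin, at 1.34, 2.04 and 1.20 FPKM against 0.779, 0.662 and 0.802 FPKM. For these 3 the groups were apart as well, with limma unadjusted p = 0.0182, 0.0257 and 0.0236. Egfl7, at 7.86 to 23.6 FPKM in control and 9.62 to 12.0 FPKM in SMA, and Cd34, at 7.25, 7.52 and 8.82 FPKM in control and 7.28, 5.97 and 5.80 FPKM in SMA, overlapped.

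Scaling each library to the same mean log2 level of the pan-endothelial markers asks how the barrier genes stood relative to endothelial RNA as a whole. In control replicate 2 the sum of these markers was 1.50 times the mean of the other controls, and that of the liver sinusoidal markers 14.9 times. Endothelial RNA of cord and of liver cannot be told apart there, so scaled values with all libraries may not be relative to cord endothelium alone. This scaling raised the median log2 fold change of all genes from 0.04 to 0.38, and from 0.00 to 0.21 without control replicate 2. After it, Slc38a5 was at -0.57 (SE 0.22), and -0.60 (SE 0.22) without control replicate 2, and Mfsd2a at 0.94 (SE 0.28) and 0.70 (SE 0.22). Cldn5 was at -0.19 (SE 0.29) and -0.44 (SE 0.22), so with all libraries its remaining difference was smaller than its error. With all libraries Slc2a1 was at 0.26, Slco1c1 at 0.17, Slco1a4 at 0.07 and Abcb1a at 0.01 after it. But these signs turned with the shift of all genes, and relative to the median these genes stayed below 0 (-0.12, -0.21, -0.31 and -0.37). As deposited, 8 of the 10 genes were below 0 with all libraries and 8 without control replicate 2 (42.0% and 49.6% of all genes were), and after this scaling 4 and 6 were (13.7% of all genes in both). Scaling to the neuron markers moved the median of all genes to -0.23 and to -0.04 without control replicate 2, and left 9 and 8 members below 0, beside 87.5% and 61.2% of all genes. Relative to the median of all genes, as deposited and after either scaling, Slc38a5 was at -0.95 to -0.97, Cldn5 at -0.57 to -0.65 and Mfsd2a at 0.49 to 0.56 with all libraries. A scaling divides all genes of a library by the same factor, and taking the median off removes most of that shift. These values were therefore bound to stay close, and their closeness shows nothing about endothelial or neuronal RNA.

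The other cells of the vessel wall were given by their markers. The 9 pericyte markers summed to 53.6, 62.1 and 62.2 FPKM in control and 53.7, 45.5 and 47.3 FPKM in SMA, with a median log2 fold change of -0.24, and -0.11 without control replicate 2. Rgs5, a regulator of G protein signalling and the most abundant of them, was at 17.9, 17.2 and 24.6 FPKM in control and 15.9, 13.6 and 14.9 FPKM in SMA. Abcc9, a subunit of the potassium channel of pericytes, was at 5.55, 8.00 and 6.30 FPKM in control and 4.70, 4.66 and 4.82 FPKM in SMA. These 2 passed an unadjusted p under 0.05 in both limma fits (2.39% and 5.2% of all genes passed lower, 3.4% and 5.27% higher), and Notch3 and Cspg4 did not. The log2 difference of Rgs5 was -0.39 with all libraries and -0.23 without control replicate 3. The 8 astrocyte endfoot markers had a median of 0.09, and -0.05 without control replicate 2. Aldoc, a glycolytic enzyme of astrocytes, was higher in SMA at 222, 138 and 195 FPKM in control and 232, 267 and 265 FPKM in SMA (limma unadjusted p = 0.0420, and 0.0121 without control replicate 2). The endfoot water channel Aqp4, at 111, 87.8 and 109 FPKM in control and 97.5, 93.7 and 87.8 FPKM in SMA, had a log2 difference of -0.13, and of -0.24 without control replicate 2 (limma unadjusted p = 0.00521). S100b passed there too, at -0.25 (limma unadjusted p = 0.00898), while Gfap and Slc1a2 passed in neither fit. With all libraries S100b was at -0.04, and its sign turned without control replicate 1 (0.03) or control replicate 3 (0.11).

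**Figure D5:**
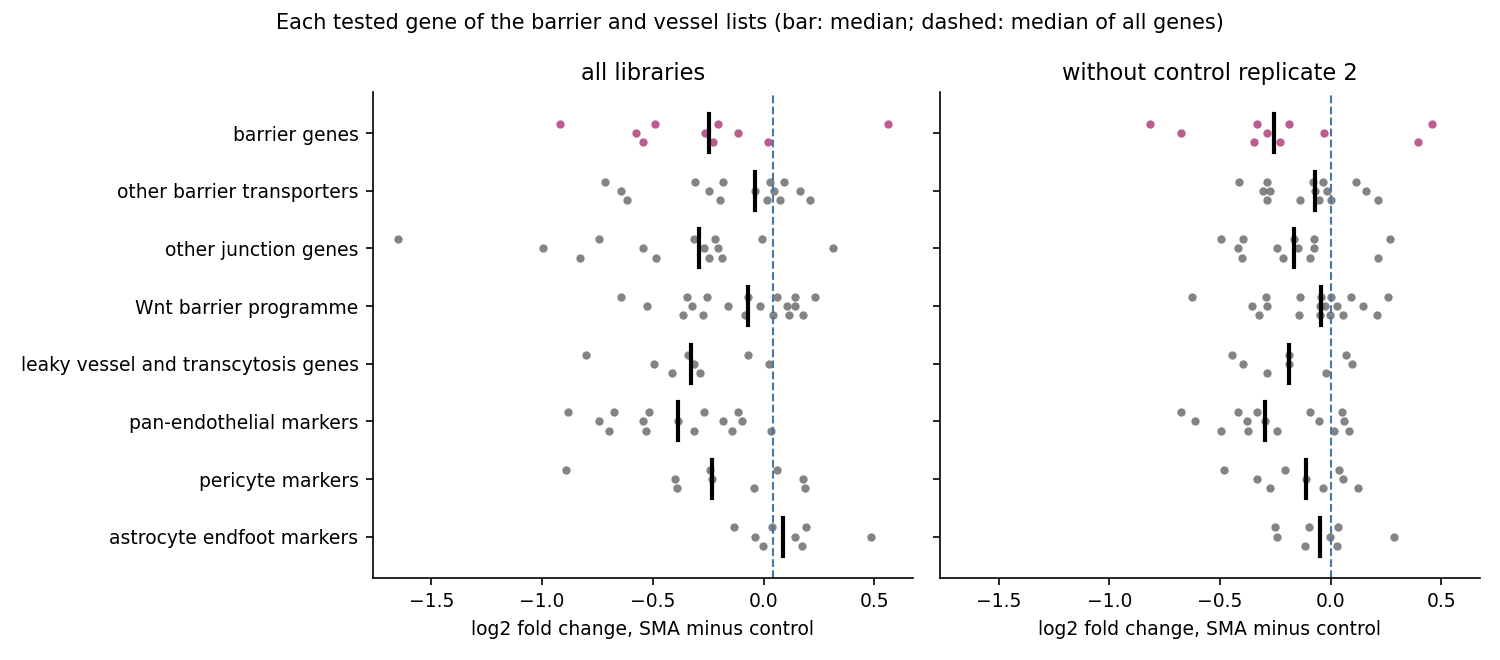
Log2 fold change, SMA minus control, of every tested gene in 8 barrier and vessel lists, with all libraries (left) and without control replicate 2 (right); the bar is the list's median and the dashed line the median of all genes tested. Barrier genes spread from -0.92 to 0.56, and the pan-endothelial markers had the lowest median in both panels (-0.39 and -0.30).

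Of the 15 other barrier transporters tested, 8 were below 0 and 7 above, with a median log2 fold change of -0.04, and 1 passed an unadjusted p under 0.05 (of all genes, 42.0% were below 0 and 2.39% passed lower). Without control replicate 2, 11 were below 0 and 4 above, with a median of -0.07 (49.6% of all genes were below 0). That gene was Slc16a1, the lactate and ketone transporter MCT1, at 17.9, 36.5 and 20.1 FPKM in control and 14.7, 13.0 and 14.3 FPKM in SMA. All SMA libraries were lower, with a log2 difference of -0.72 (SE 0.25), and -0.41 (SE 0.09) without control replicate 2 (limma unadjusted p = 0.0017, adjusted p = 0.287). Without control replicate 2, 2 of the 15 passed, both lower (5.2% of all genes did), the other being Tfrc, the transferrin receptor of barrier endothelium and of red cell precursors. Tfrc was at 42.0, 89.2 and 42.0 FPKM in control and 35.1, 31.0 and 36.9 FPKM in SMA. Lrp1, a clearance receptor at 73.5, 81.9 and 92.8 FPKM in control and 97.7, 88.0 and 91.7 FPKM in SMA, and Slc6a6, the taurine transporter at 46.7, 42.4 and 52.0 FPKM in control and 51.5, 48.3 and 48.5 FPKM in SMA, overlapped.

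Of the other junction genes, 13 of 14 tested were below 0 with all libraries, with a median of -0.29, and 11 of 13 without control replicate 2, with a median of -0.16 (42.0% and 49.6% of all genes were below 0). The gene tested only with all libraries was Cldn3, a claudin at 14.6 FPKM in control replicate 2 and 0.198 to 0.535 FPKM elsewhere, so its sign there rests on that library. Of the list, 3 genes (Pecam1, Cdh5 and Esam) are also among the pan-endothelial markers, and Pecam1 passed downward in both fits (limma unadjusted p = 0.0182 and 0.0323; 2.39% and 5.2% of all genes passed lower). The exception that passed upward was Tjp1, the ZO-1 scaffold that links claudins and occludin to actin and is made by most cells. Tjp1 was at 22.5, 19.8 and 21.1 FPKM in control and 28.9, 28.0 and 22.8 FPKM in SMA (log2 difference 0.31, SE 0.12; limma unadjusted p = 0.0361). All SMA libraries were higher, so scaffold and claudin-5 RNA differed in opposite directions. Jam3 was at 12.4, 10.3 and 17.1 FPKM in control and 11.9, 11.5 and 9.16 FPKM in SMA. Of the 2 fits, it passed downward only without control replicate 2 (-0.40, limma unadjusted p = 0.0330). Its log2 difference was -0.25 with all libraries and -0.06 without control replicate 3. Jam2, at 14.3 to 17.5 FPKM in control and 15.8 to 16.6 FPKM in SMA, passed in neither fit.

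Of 19 tested genes of the Wnt barrier programme, Wnt targets included, 11 were below 0 and 8 above, with a median of -0.07. Without control replicate 2, 12 were below 0 and 7 above, with a median of -0.05 (42.0% and 49.6% of all genes were below 0). Ctnnb1, encoding beta-catenin, was at 136, 113 and 136 FPKM in control and 144, 143 and 138 FPKM in SMA. Its groups were apart, with a log2 difference of 0.14 (SE 0.11), and 0.05 (SE 0.05) without control replicate 2. Ctnnb1 passed in neither fit. Sox17, a transcription factor of arterial and barrier endothelium, was the gene of the list that passed with all libraries (2.39% of all genes passed lower). It was at 2.58, 2.29 and 3.61 FPKM in control and 1.54, 2.15 and 1.27 FPKM in SMA, with a log2 difference of -0.53 (SE 0.19), and -0.63 (SE 0.19) without control replicate 2. All SMA libraries were lower than all controls. Without control replicate 2, 4 genes of the list passed, all lower (5.2% of all genes passed lower there). Among them were the Wnt target Apcdd1 (-0.29, limma unadjusted p = 0.0315) and Foxf2, a factor of brain pericytes (-0.32, limma unadjusted p = 0.0387). With all libraries Apcdd1 was at -0.08 and Foxf2 at -0.16, and without control replicate 3 they were at 0.07 and -0.07. Tspan12, a co-receptor for norrin, was at 20.6, 30.4 and 17.1 FPKM in control and 16.0, 17.4 and 17.3 FPKM in SMA and did not pass.

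Of the 8 genes of leaky vessels and transcytosis tested, 7 were below 0, with a median of -0.33, and 6 without control replicate 2, with a median of -0.19 (42.0% and 49.6% of all genes were below 0). An unadjusted p under 0.05 was passed by 1 and 3 of them, all lower (2.39% and 5.2% of all genes passed lower). Cavin1, which coats caveolae, was at 8.17, 9.07 and 8.05 FPKM in control and 7.54, 5.17 and 4.69 FPKM in SMA (log2 difference -0.49, SE 0.17; limma unadjusted p = 0.0234). Cav1, the main caveolar protein, was at 11.1, 8.18 and 7.74 FPKM in control and 7.93, 6.46 and 6.21 FPKM in SMA. Its groups overlapped, with a log2 difference of -0.34 (SE 0.16), and -0.39 (SE 0.16) without control replicate 2, where it passed. Vcam1, an adhesion molecule of activated endothelium that other cells make too, was at 14.4, 24.3 and 15.4 FPKM in control and 12.8, 13.2 and 12.7 FPKM in SMA, and passed only without control replicate 2 (-0.19, limma unadjusted p = 0.0381). Mfsd2a, which holds down caveolar transport, was higher in SMA, while Cavin1 and Cav1 were not.

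Markers of cells outside the vessel wall moved with control replicate 2. The 10 neuron markers had a median log2 fold change of 0.31 with all libraries and 0.04 without control replicate 2, and by FPKM Stmn2, Map2 and Tubb3 were the most abundant of them. Rbfox3 and Syt1 passed higher without it (0.21 and 0.15, limma unadjusted p = 0.0167 and 0.0437), as did 5.27% of all genes. With all libraries Rbfox3 was at 0.39 and Syt1 at 0.41, and neither passed. The 12 hepatocyte markers had a median of -2.81 with all libraries and 0.03 without it, and none of them, Alb, Ahsg and Trf included, passed in either fit. The 9 erythroid markers tested had a median of -1.53, and the 8 tested without that library -0.30. The globins Hbb-bs, Hba-a1 and Hba-a2 passed in neither fit. The 8 liver sinusoidal markers had a median of -0.72, and the 3 still tested without control replicate 2 one of -0.18, with Clec4g and Stab2 under the minimum there and Fcgr2b at 0.07. Choroid plexus, an epithelium rich in transporters, left little signal, since its markers Kl and Folr1 were at 1.26 to 2.65 FPKM and 0.250 to 0.744 FPKM, Otx2 was listed in no library, Kcne2 was at 0 in control replicate 3, and F5, which hepatocytes also make, was at 37.0 FPKM in control replicate 2 and at most 0.610 FPKM elsewhere.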

How the data were processed

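The authors depleted ribosomal RNA, built strand-specific libraries, aligned reads with HISAT2 and computed FPKM per gene with Cufflinks on mm10 (versions not stated). The deposited FPKM files list only genes above 0, and an absent gene was taken as 0. FPKM holds no read counts, so the count test of the study's methods was replaced by limma 3.58.1 in R 4.3.3 on log2(FPKM + 1), over genes averaging 0.5 FPKM or more (lmFit, eBayes with trend, two-sided, Benjamini-Hochberg over all genes tested). The fit was checked on data simulated with the spread left without control replicate 2 and with differences larger than any of the members'. That check does not cover the spread with that library, or smaller differences. The log2(FPKM + 1) scale understates the fold changes of low genes. Relative depth, estimated from values under 0.15 FPKM, was 1.00 to 1.16 times that of SMA replicate 1, and depth in reads is unknown. Members and lists were chosen with earlier results of these data known. Of 160 gene symbols in the lists, 157 were found, 2 of them by gene ID. Genes named are the members, Smn1, relatives averaging 1 FPKM or more and, from each other list, the 3 most abundant and up to 3 with the smallest unadjusted p under 0.05 in each fit, except 1 gene that is not reported here; Cdh5, Esam, Cldn3, Oit3, Dnase1l3, Kcne2, Otx2, Snora74a and Rpph1 are named outside this rule, after their values were seen. Positions are from GENCODE M21. Alternatives were a pseudocount of 0.1, no minimum or a minimum of 1 FPKM, median ratio scaling, the replicate number as a block, leaving out each library and, for the members, scaling to endothelial or neuron markers and group medians. The scalings without control replicate 2 were chosen after seeing the data.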

Additional observations from a re-analysis of the deposited data

How the results depend on the processing

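Slc38a5, Cldn5, Abcg2 and Ocln stayed below 0 and Mfsd2a above 0 in all 15 alternatives run for the members. The values ran from -1.20 to -0.57 for Slc38a5, -0.88 to -0.19 for Cldn5 and 0.26 to 0.94 for Mfsd2a, with the ends at the neuron and pan-endothelial scalings. For these genes the groups did not overlap. Leaving out a library, group medians, the pseudocount and the replicate block therefore could not turn the sign, and only the scalings could. Slc7a5 and Slco1a4 each changed sign in 6 of them, Slc2a1 in 2, and Slco1c1 and Abcb1a in 1. Of the 150 member values, 25 moved by at least 1 SD, taken within the groups on log2(FPKM + 1) with control replicate 2 included. That library widens the SD of Slco1a4, so no value of Slco1a4 counted as moved although its sign turned. Of the other 60 named genes fitted, 12 changed sign in some alternative, 6 of them without control replicate 2.

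The count of lower genes at unadjusted p under 0.05 (409) ranged from 125 to 862 when 1 library was left out, 862 without control replicate 2, 712 without control replicate 3, 142 without SMA replicate 2 and 125 without SMA replicate 3. The count of higher genes (581) ranged from 214 to 1040 in this way, and was 882 with no filter on low FPKM. With a fold over 2 besides, lower genes (17) ranged from 4 to 131 and higher genes (12) from 12 to 28, and with a pseudocount of 0.1 they were 125 and 64. Genes at adjusted p under 0.05 ranged from 0 to 2 when 1 library was left out, the 2 without control replicate 2. In the scalings without that library, added after seeing the data, they were 161 with pan-endothelial, 1 with neuron and 1 with median ratio scaling, and 0 in each of these with all libraries. The cause of these shifts was not tested.

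Libraries with the same replicate number correlated at -0.04, 0.02 and 0.08 in their deviations from the group means. Not every library correlated best with its own number, so the numbers were not treated as pairs in the main fit. Whether such libraries share a litter or a preparation cannot be told from these correlations. With the replicate block, 303 genes were lower and 356 higher at unadjusted p under 0.05, 35 and 13 with a fold over 2, and 0 at adjusted p under 0.05. Without read counts, no counting error could be given for low genes such as Slco1a4 and Abcb1a.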
